A study of Mus musculus with 4 samples.

Results

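The nuclear-encoded subunits of the respiratory chain and ATP synthase were followed across 2 regions of the old mouse brain, the accumbens and the dorsal striatum. Members were taken by gene symbol: Nduf genes of the a, b, c, s, v and ab series, Sdha to Sdhd, all Uqcr genes, Cox4 to Cox8 subunit genes, all Atp5 genes, Cyc1 and Cycs. This gave 87 of the 32531 gene rows, of which 38 belonged to complex I, 4 to complex II, 9 to complex III (Cyc1 included), 18 to complex IV and 17 to complex V, with Cycs as the single gene of cytochrome c. Of these, 79 passed the filter on low counts and were tested. The 4 libraries were RNA-seq of input RNA from tissue, 2 from dissected dorsal striatum and 2 from dissected accumbens. All came from animals older than 20 months of the Drd1-TRAP CP73 line, in which the Drd1 promoter drives EGFP fused to the ribosomal protein Rpl10a. The transgene was therefore present in both regions, and the libraries hold RNA of all cells of the tissue, not only of Drd1 cells. Whether the 2 libraries of a region came from separate animals is not stated, so the p-values rest on the spread between these 4 libraries alone, which may be technical. In bulk tissue, fewer cells of a type and less RNA per cell cannot be told apart.

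Oxidative phosphorylation passes electrons from NADH and succinate through complexes I and II to ubiquinone, then through complex III, cytochrome c and complex IV to oxygen. Protons pumped by complexes I, III and IV drive complex V, the ATP synthase. The catalytic cores of complexes I, III and IV are partly encoded by mitochondrial DNA, while most of the remaining subunits are small nuclear-encoded proteins made from short transcripts. Neurons depend on this pathway for the ion pumping that follows synaptic activity, and spiny projection neurons are known to be sensitive to inhibitors of complex II. None of the 13 mitochondrially encoded subunits had a row under the symbols searched, so they were not analysed here.

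Counts assigned to genes ranged from 8478403 to 11849134 per library. Fewer genes were detected in each accumbens library (16915 and 17417) than in either one of dorsal striatum (19519 and 19532). Depth was similar for replicate 1 of each region, at 8606099 and 8991788 counts. The TMM factors split by region too, at 0.940 and 0.945 for accumbens and 1.061 for both others. These library differences cannot be told apart from region here, and their part in the fold changes was not tested. The markers of the labelled tissue were present. Levels are in CPM (counts scaled to a common library size, here after TMM scaling, which also corrects for library composition). The summed level of 10 genes of spiny projection neurons was 6455 and 6575 CPM in dorsal striatum. In accumbens the sum was 5801 and 4765 CPM, lower without overlap. Of the 10 genes, 4 had a positive and 6 a negative fold change. Rgs9 among them passed the test as lower in accumbens (log2 fold change −1.135, SE 0.125, edgeR adjusted p = 0.0233). All 8 accumbens markers had higher fitted levels in accumbens and all 4 markers of dorsal striatum had lower ones. Markers of cortical glutamatergic neurons also differed, with a summed level of 159 and 70.0 CPM in dorsal striatum replicates 1 and 2 and 382 and 220 CPM in accumbens replicates 1 and 2. Of its 10 genes, 8 were tested and 0 passed (edgeR adjusted p), 6 had a positive fold change, and none was at 0 in every library. The sums of fast-spiking interneuron markers (305 and 292 against 406 and 437 CPM), oligodendrocyte markers (2220 and 1570 against 2281 and 2629 CPM) and microglial markers (51.9 and 39.2 against 61.4 and 65.8 CPM) did not overlap either. Within these lists 2 of 6, 1 of 6 and 3 of 6 genes lay above in accumbens without overlap, as did 25.6% of all tested genes. Sums of striated muscle markers were also higher in accumbens (28.1 and 26.5 against 36.7 and 37.3 CPM). Sums of choroid plexus and ependyma markers (15.2 and 16.3 against 12.3 and 12.9 CPM) and erythroid markers (9.98 and 11.2 against 7.68 and 9.25 CPM) were lower there. Kcnc1 of the fast-spiking interneuron list passed the test, Tac1 of that list is also a spiny neuron marker, and its defining gene Pvalb had a negative value (−1.25, SE 0.74). Astrocyte sums overlapped (2778 and 1907 against 3156 and 2699 CPM). Of that list Gja1 passed as higher (1.01, SE 0.19, edgeR adjusted p = 0.0491), while 2 of the 6 genes had a negative value. The part of these cell types in the results below was not tested.

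Most subunit genes had higher levels in accumbens, and fewer did in a fit with an offset for transcript length. By complex, the medians of complexes III and IV were the highest. The largest values of single genes also came from complexes I and V, such as Ndufc1 (log2 fold change 1.35) and Atp5e (1.20). The alpha and beta subunits of complex V and Ndufs1 of complex I had negative fold changes without passing the test. Fold changes are log2 of accumbens over dorsal striatum. The median over the 79 tested members was 0.35, against 0.02 over all 14493 tested genes, and 64 of the 79 were positive (81.0%, against 51.4% of all tested genes). Both accumbens libraries lay above both dorsal striatum libraries for 47 members and below for 5, where the background was 25.6% of all tested genes in either direction. Single genes rarely passed the test: 3 members did, all higher in accumbens (3.80%), where 0.994% of all tested genes were called higher and 0.29% lower (edgeR quasi-likelihood test, adjusted p under 0.05 over all genes, 1.28% in both directions). These were Cox8a, Cox7a2 and Ndufa4. At an unadjusted p under 0.05, 25 members were higher and 3 lower, where the background was 10.9% and 8.27% of all genes. With DESeq2, 9 members were higher, where 3.97% of all tested genes were. By complex the medians were 0.27 for complex I, 0.09 for complex II, 0.60 for complex III, 0.61 for complex IV and 0.49 for complex V. Scaled by library size alone, the median of all genes moved to −0.15 and that of the members to 0.18, with 47 members positive and 1 called. With an offset for the length of the longest transcript, the members' median was 0.06, 43 of the 79 were positive and 0 were called, and the median of complex I was −0.06.

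**Figure D1:**
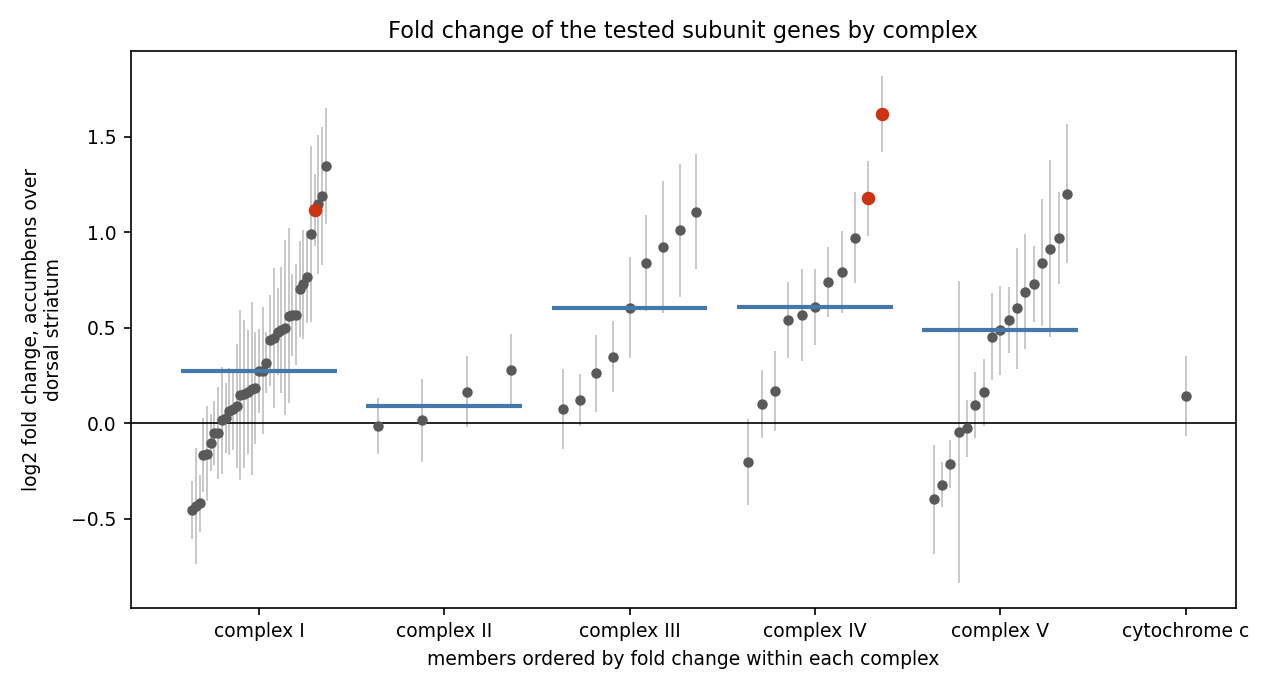
Log2 fold change (vertical axis) of each of the 79 tested genes, ordered within its complex along the horizontal axis. Points are genes, grey bars are 1 SE either way, blue lines are the median of a complex and red points mark the 3 genes with an edgeR adjusted p under 0.05. Complexes III and IV have the highest medians (0.60 and 0.61) and complex II the lowest of the 5 (0.09).

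Complex IV, cytochrome c oxidase, reduces oxygen to water. Its nuclear subunits surround a catalytic core encoded in mitochondrial DNA. Cox8a encodes one of the smallest of them. It was at 36.5 and 42.6 CPM in dorsal striatum and at 140 and 103 CPM in accumbens. The groups did not overlap, and the accumbens libraries differed from each other by more than the dorsal striatum libraries did. This was a fitted 3.07-fold difference, or 1.62 on the log2 scale (SE 0.20, edgeR adjusted p = 0.0233). The gene lies on chromosome 19 at 7215153 to 7217616, minus strand, in GRCm38.

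Cox7a2, which encodes another of the small membrane-spanning subunits, was at 22.9 and 23.1 CPM in dorsal striatum and 55.0 and 49.1 CPM in accumbens. Each region's pair was close and the pairs stood apart, with a log2 fold change of 1.18 (SE 0.20, edgeR adjusted p = 0.0431). Ndufa4 was first assigned to complex I and is now placed with complex IV. It was at 26.7 and 27.7 CPM in dorsal striatum and at 62.9 and 55.1 CPM in accumbens, again without overlap. The difference was 1.12 on the log2 scale (SE 0.19, edgeR adjusted p = 0.0431). Cox7a2 and Ndufa4 missed the threshold without dorsal striatum replicate 1 or 2 (edgeR adjusted p 0.149 to 0.217), with log2 fold changes of 1.15 and 1.18 for Cox7a2 and 1.07 and 1.14 for Ndufa4. With scaling by library size they were at 1.01 and 0.95 (edgeR adjusted p 0.0505 and 0.0519). With an offset for transcript length the fold changes were smaller and none of the 3 genes passed: Cox8a was at 1.05 (edgeR adjusted p = 0.0523), Cox7a2 at 0.69 (0.130) and Ndufa4 at 0.59 (0.157).

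The start regions of these 3 genes are shown because these members passed the test. Each runs from 200 bases before the RefSeq start to 10 after it (GRCm38.p6, written 5′ to 3′ along the gene). Capitals mark the letters of the ETS motif CCGGAAG on either strand, the one motif of those searched that fell in these stretches.
Cox8a, chr19:7217607-7217816, minus strand: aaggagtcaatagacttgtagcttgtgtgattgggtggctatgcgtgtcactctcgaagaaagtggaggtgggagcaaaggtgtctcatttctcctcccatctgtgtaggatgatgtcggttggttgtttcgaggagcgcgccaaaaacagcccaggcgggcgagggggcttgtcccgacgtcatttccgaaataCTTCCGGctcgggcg
Cox7a2, chr9:79759844-79760053, minus strand: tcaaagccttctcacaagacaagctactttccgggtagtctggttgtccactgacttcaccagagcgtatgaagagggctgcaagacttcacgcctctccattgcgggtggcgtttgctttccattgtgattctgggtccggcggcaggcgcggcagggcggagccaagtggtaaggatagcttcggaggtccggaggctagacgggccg
Ndufa4, chr6:11907441-11907650, minus strand: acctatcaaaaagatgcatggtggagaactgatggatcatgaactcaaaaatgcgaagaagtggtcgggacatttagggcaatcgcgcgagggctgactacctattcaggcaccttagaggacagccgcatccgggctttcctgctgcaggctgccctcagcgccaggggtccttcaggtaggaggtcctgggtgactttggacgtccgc
The match in Cox8a lay across the annotated start, a further one lay beyond the stretch shown, and the other 2 stretches held no match to the letters searched.

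The remaining ubiquitous subunits of complex IV pointed the same way without passing. Of 10 genes, 10 had a positive fold change, 2 passed (Cox8a and Cox7a2), and 9 had accumbens libraries above both dorsal striatum libraries. The shares over all tested genes were 51.4% positive, 0.994% called higher and 25.6% above without overlap. Cox6b1, which encodes a subunit on the intermembrane side near the cytochrome c site, was at 17.2 and 19.2 CPM in dorsal striatum and 39.5 and 32 CPM in accumbens (log2 fold change 0.97, SE 0.24, edgeR adjusted p = 0.0861). Cox6a1 was at 35.4 and 52.4 against 74.8 and 77.5 CPM (0.79, SE 0.21, edgeR adjusted p = 0.112). Cox7c (0.74), Cox7b (0.61), Cox5a (0.57) and Cox5b (0.54) also had groups that did not overlap. At the other end, Cox4i1, the largest nuclear subunit, was at 85.1 and 108 CPM in dorsal striatum and 93.9 and 113 CPM in accumbens, so its groups overlapped (0.10, SE 0.18). Its exons overlap those of Emc8 on the other strand. Cox7a2l encodes a factor that joins complexes III and IV into supercomplexes rather than a regular subunit, and it was the complex IV gene with a negative value: 41.0 and 54.6 CPM in dorsal striatum and 47.2 and 36 CPM in accumbens, with overlap (−0.20, SE 0.23).

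**Figure D2:**
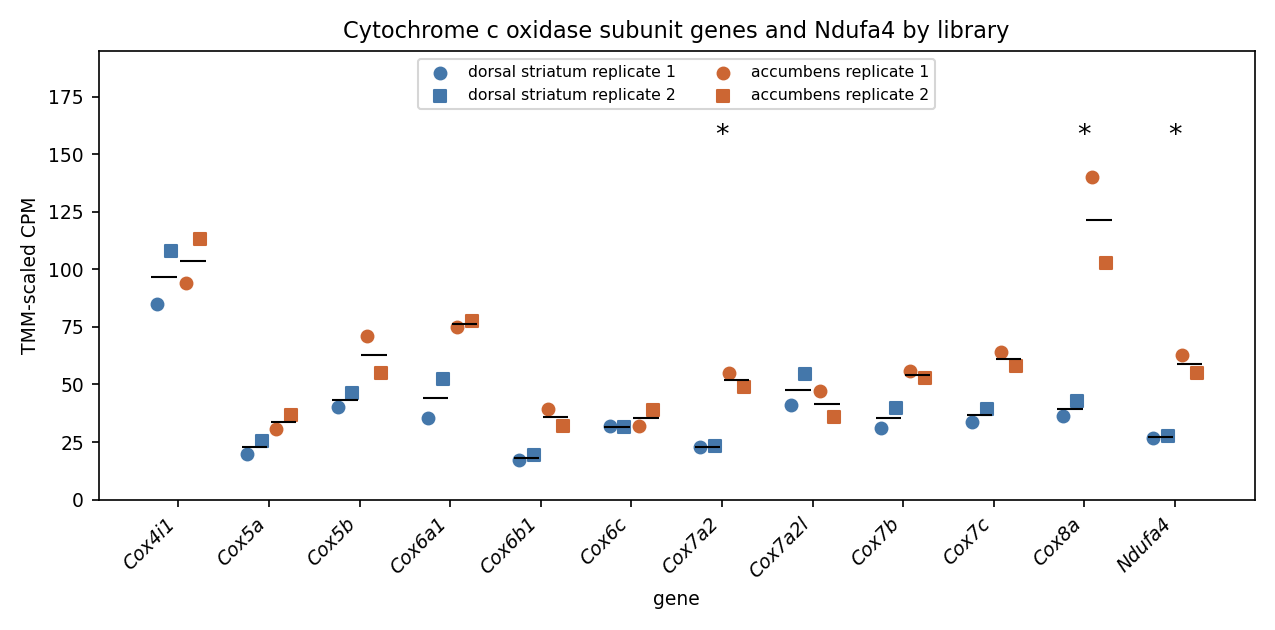
TMM-scaled CPM (vertical axis) of 11 complex IV genes and Ndufa4 in each library. Points are libraries, black lines are the means of the 2 libraries of a region and asterisks mark an edgeR adjusted p under 0.05. Cox8a, at 140 and 103 CPM in accumbens against 36.5 and 42.6 CPM in dorsal striatum, stands farthest apart, while Cox4i1 and Cox7a2l overlap.

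Complex III, the cytochrome bc1 complex, hands electrons from ubiquinol to cytochrome c. All 9 of its genes had a positive fold change, as did 51.4% of all tested genes. In 8 of them the accumbens libraries lay above without overlap, as in 25.6% of all tested genes. None passed (smallest edgeR adjusted p 0.112). At an unadjusted p under 0.05, 4 were higher, where 10.9% of all tested genes were. The 5 small accessory subunits had a median of 0.92 and the 4 larger ones, the core proteins and the redox subunits, 0.23. Uqcrq, a small subunit at the membrane, was at 8.62 and 10.7 CPM in dorsal striatum and 19.1 and 22.6 CPM in accumbens (log2 fold change 1.11, SE 0.30). Uqcr10 was at 14.2 and 14.3 against 25.0 and 25.9 CPM (0.84, SE 0.25). Uqcrh, the hinge protein that helps cytochrome c bind, was at 32.6 and 38.3 against 45.3 and 39.6 CPM, a narrow gap (0.26, SE 0.20). Among the larger subunits, the core protein gene Uqcrc2 differed little, at 109 and 111 CPM against 123 and 117 CPM (0.12, SE 0.14). Cyc1, which carries the heme c of the complex, overlapped between regions at 35.1 and 41.7 against 36.4 and 44.5 CPM (0.07, SE 0.21). Uqcrfs1, the Rieske iron-sulfur protein gene, was higher in accumbens replicate 1 (44.8 CPM) than in replicate 2 (28.4 CPM), with 23.9 and 24.3 CPM in dorsal striatum.

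The genes of complex V differed in direction, also within a part of the enzyme. It has a catalytic F1 head, a stalk and a membrane part with a rotating c ring. Of 17 genes, 0 passed in edgeR (5 were higher and 1 lower at an unadjusted p under 0.05), 12 had a positive and 5 a negative fold change. Over all tested genes 10.9% were higher and 8.27% lower at that p, and 51.4% were positive. Atp5b, the catalytic beta subunit and by far the most abundant member, was at 2361 and 2869 CPM in dorsal striatum and 2122 and 2062 CPM in accumbens. Both accumbens values lay below both dorsal striatum values, with a log2 fold change of −0.32 (SE 0.12, edgeR adjusted p = 0.200). Atp5a1, the alpha subunit of the same head, followed at 596 and 698 against 578 and 536 CPM (−0.22, SE 0.13). The central stalk genes of F1 did not share one direction. Atp5c1 (gamma) overlapped between regions (−0.03), while Atp5d (delta) was at 64.9 and 77.8 against 98.9 and 138 CPM (0.73, SE 0.20) and Atp5e (epsilon) at 6.51 and 5.82 against 11.9 and 16.5 CPM (1.20, SE 0.36, edgeR adjusted p = 0.132). The 7 genes of the outer stalk and membrane part had a median of 0.49, with 6 positive. The 5 genes of F1 had a median of −0.03, with 2 positive and 3 negative. With the offset for the longest transcript these medians were 0.06 and −0.11. Among the 17 Atp5 genes, Atp5s had the most negative value, at 19.4 and 19.8 against 17.0 and 12.8 CPM (−0.40, SE 0.29). Atp5s and Atp5sl carry the symbol but are not counted among the subunits of the enzyme.

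The c ring is built from identical subunits that 3 genes encode, since their mature proteins are the same and only the targeting peptides differ. Atp5g3 was the main one, at 54.0 and 63.0 CPM in dorsal striatum and 59.8 and 65.3 CPM in accumbens, overlapping between regions (log2 fold change 0.10, SE 0.17). Atp5g1 was at 18.8 and 23.2 CPM in dorsal striatum and 35.7 and 46.6 CPM in accumbens (0.97, SE 0.24, edgeR adjusted p = 0.0908). Atp5g2 was the lowest, at 3.57 and 5.42 against 10 and 7.0 CPM (0.91, SE 0.46). Of the reads of the 3 genes, Atp5g1 took 24.6% and 25.3% in dorsal striatum against 33.8% and 39.2% in accumbens, and Atp5g3 took 70.7% and 68.8% against 56.7% and 54.9%. These shares did not overlap between regions. The difference in shares was not tested, and the genes are known to have near-identical pseudogenes, so their counts are uncertain.

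Summed over all its genes, complex V had the opposite sign from the median of its members, and Atp5b alone made up most of the sum. The sum was 3473 and 4132 CPM in dorsal striatum and 3353 and 3338 CPM in accumbens, a log2 ratio of −0.18. Without Atp5b the ratio was 0.08. Complex IV gave 397 and 486 against 707 and 653 CPM (0.62) and complex III gave 293 and 332 against 404 and 392 CPM (0.35). Complex I was at 1058 and 1204 against 1217 and 1240 CPM (0.12) and complex II at 476 and 594 against 555 and 538 CPM (0.03). Summed over all gene rows, the same log2 ratio was 0.17 after TMM scaling. The ratios of complexes I, II and V lay below that value, and those of complexes III and IV above it. The sums of complexes III and IV stood apart between regions by more than the libraries of a region differed, the accumbens sums of complex I lay just above those of dorsal striatum, and those of complex II overlapped. All 87 genes together held 5726 and 6776 CPM in dorsal striatum and 6266 and 6194 CPM in accumbens, with overlap. With 2 libraries against 2, an exact two-sided permutation test cannot go below p = 0.333, so no p is given for the sums.

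**Figure D3:**
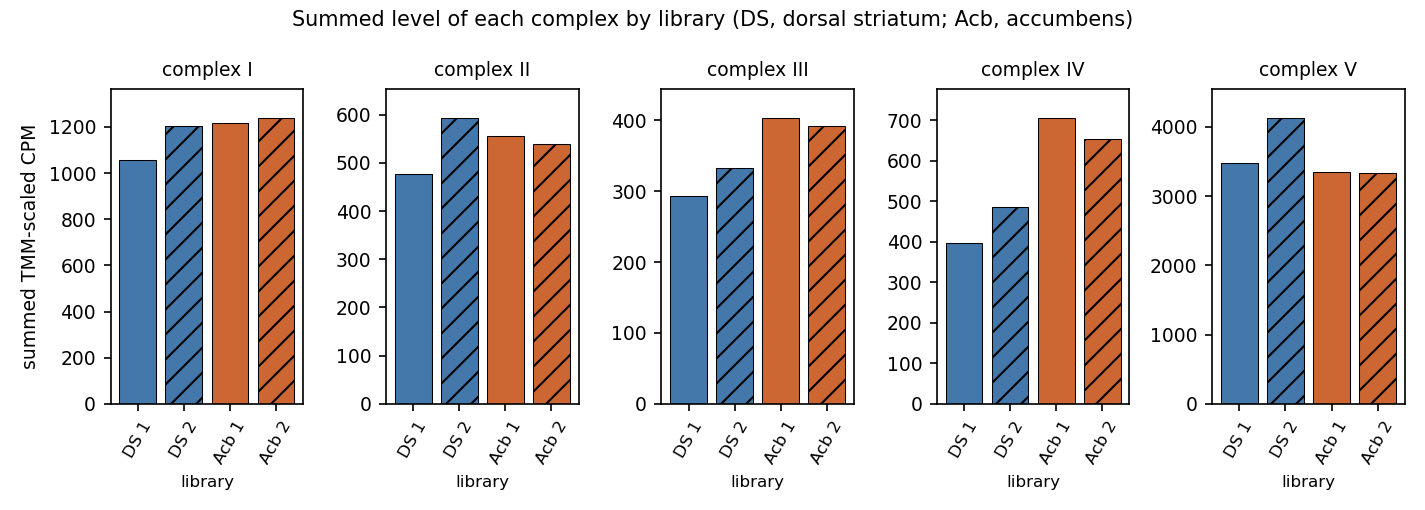
Summed TMM-scaled CPM (vertical axes, each from 0) of all genes of a complex in each library (horizontal axes). Complex IV stands apart most clearly, at 397 and 486 CPM in dorsal striatum against 707 and 653 CPM in accumbens, while complex V is lower in accumbens, at 3353 and 3338 CPM.

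Complex I, NADH dehydrogenase, is the largest complex, with a conserved catalytic core and many accessory subunits. Of its 37 tested genes, 29 were positive, 8 were negative, 18 lay above and 2 below in accumbens without overlap, and Ndufa4 alone passed. Over all tested genes 51.4% were positive, and 25.6% lay above and 25.6% below without overlap. The 29 accessory subunits had a median of 0.27 and the 7 nuclear core subunits, which carry the flavin and the iron-sulfur clusters or the quinone site, 0.07. With the offsets for the longest and the principal transcript length the order turned, to −0.13 and −0.03 for the accessory and −0.02 and 0.009 for the core subunits. The core genes spread widely. Ndufs1, the largest subunit, was at 113 and 111 CPM in dorsal striatum and 78.5 and 88.8 CPM in accumbens (log2 fold change −0.42, SE 0.15, edgeR adjusted p = 0.181). Both accumbens values lay below both dorsal striatum values. Ndufs7, which carries an iron-sulfur cluster, had the opposite sign at 18.4 and 22.9 against 38.4 and 31.9 CPM (0.77, SE 0.24, edgeR adjusted p = 0.142), and Ndufv1, which binds NADH, was at 0.32 (SE 0.16).

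Among the accessory subunits the largest difference was that of Ndufc1, a small membrane subunit. It was at 9.56 and 12.3 CPM in dorsal striatum and 33.1 and 22.6 CPM in accumbens, without overlap (log2 fold change 1.35, SE 0.31, edgeR adjusted p = 0.0766). Ndufb2 (1.19), Ndufa11 (1.15) and Ndufs5 (0.99) had values of similar size, with 32 to 168 counts per library. Exons of Ndufb2 and Ndufa11 overlap other genes on the opposite strand, and Ndufb2 also 1 gene on its own strand. Ndufb9, the complex I gene with the highest level per length of the longest transcript, was flat at 57.6 and 62.5 against 60.3 and 55.4 CPM (−0.05, SE 0.17). By the principal transcript length Ndufa4 was higher, at 95.4 against 83.7 CPM per kb for Ndufb9. The lowest value among accessory subunits was that of Ndufa8, at 21.0 and 30.9 against 15.7 and 22.8 CPM, with overlapping groups (−0.44, SE 0.30).

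Complex II, succinate dehydrogenase, belongs to both the citric acid cycle and the respiratory chain, and all its subunits are nuclear. It had no gene past the threshold in edgeR and none at an unadjusted p under 0.05. Sdha, the flavoprotein, was at 359 and 456 CPM in dorsal striatum and 418 and 388 CPM in accumbens (log2 fold change −0.02, SE 0.14), so the groups overlapped. Sdhb was at 0.01 (SE 0.22), Sdhd at 0.16 (SE 0.18) and the membrane anchor gene Sdhc at 0.28 (SE 0.19), with 39.4 and 47.5 against 51.9 and 53.8 CPM. Cycs, the cytochrome c gene, was at 28.7 and 27.9 CPM in dorsal striatum and 30.5 and 32 CPM in accumbens (0.14, SE 0.21, edgeR adjusted p = 0.771). Its groups did not overlap, yet the gap was small beside its SE.

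Per length of transcript, the subunits of one enzyme were far from equal in level. Atp5b was at 1228 CPM per kb over the 4 libraries and Atp5a1, its partner in the head, at 225 CPM per kb, while the other members ranged up to 147 CPM per kb for Cox8a and 140 CPM per kb for Sdha. Cox4i1 was at 131 CPM per kb, Ndufb9 at 83.7 CPM per kb, and Uqcrh, the highest in complex III, at 71.2 CPM per kb. Atp5l was near the lower end at 3.48 CPM per kb, with 9 to 22 counts per library. The median member of complex IV stood at 43.3 and 48.4 CPM per kb in dorsal striatum and at 81.9 and 63.6 CPM per kb in accumbens. For complex I these medians were 18.9 and 21.9 against 26.5 and 24.6 CPM per kb. Each length was that of the longest coding transcript of a gene. For genes such as Ndufb2 (4371 bases against 455 for the APPRIS principal transcript) and Atp5g1 (4715 against 596) this lowers the value per kb. The same holds for Uqcrq (1521 against 405) and Ndufc1 (1249 against 315).

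Isoforms typical of muscle, lung or testis were close to 0. None of Cox4i2, Cox6a2, Cox6b2, Cox7a1, Cox7b2, Cox8b and Cox8c passed the low-count filter, nor did Ndufa4l2, the isoform induced by low oxygen. Cox8c had 0 counts in every library and Cox8b had 3 counts in a single one. Cox4i2, a lung isoform, had 9 and 13 counts in dorsal striatum against 8 and 0 in accumbens, and Cox4i1 took 98.9% to 100% of the pair's reads. Cox6a2, the heart and muscle form of Cox6a1, had 3 and 10 against 10 and 8 counts. Cox6b2, the testis form of Cox6b1, had 6 and 11 counts in dorsal striatum (0.630 and 0.877 CPM) and 0 in both accumbens libraries, where 3 counts would have been 0.372 and 0.375 CPM. Counts this low cannot show a difference between regions, and intervals and floors cover counting error only.

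Members with short transcripts had the more positive fold changes, and so did the less abundant members. Among the 78 members with a known length, Spearman's rho of log2 fold change with length was −0.35 for the longest protein-coding transcript and −0.62 for the APPRIS principal transcript (Pearson's r −0.29 and −0.62 with log2 length). With mean CPM, over 79 members, rho was −0.38 and r −0.36. These are descriptions across genes that share the same 4 libraries. The 34 members with a principal transcript of up to 700 bases had a median of 0.76, and the 244 other tested genes of that size had 0.49. Above 700 and up to 1400 bases the 25 members had 0.18 against 0.20 for 1333 other genes. Over 1400 bases the 19 members had 0.07 against 0.003 for 10762 other genes. By the longest transcript, the 23 members of up to 700 bases had a median of 0.57, against 0.59 for 104 other genes. Of these 23, 11 lay above that 0.59. The middle class then had 0.35 (30 members) against 0.24 (1033 other genes). Over 1400 bases the values were 0.12 (25 members) and 0.005 (11202 other genes). The shortest members thus exceeded other genes of their size by the principal length only. In the fit with an offset for the longest transcript, 0.807% of all genes were called higher. With the length of the principal transcript the median of the members was 0.10, with 47 positive and Cox8a past the threshold. In both fits the medians of complexes III (0.26 and 0.29) and IV (0.24 and 0.29) stayed above 0, and that of complex I was −0.06 and −0.006.

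**Figure D4:**
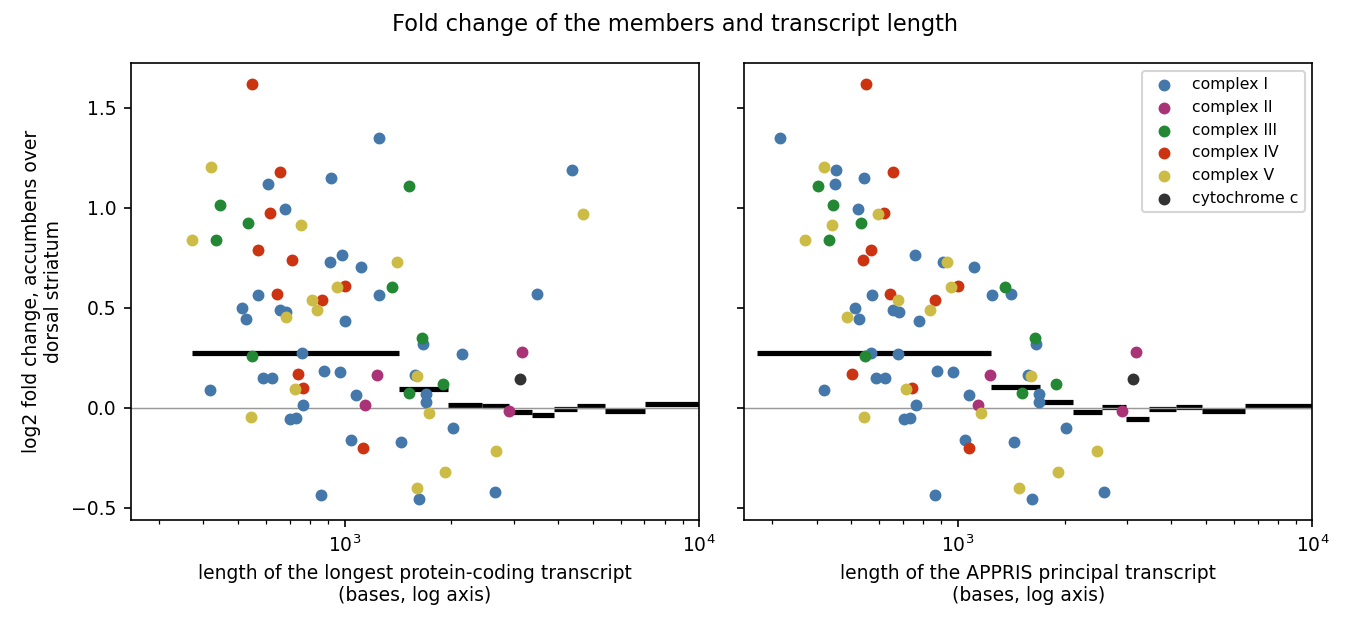
Log2 fold change of the tested members (vertical axis) against transcript length in bases (log axis), for the longest protein-coding transcript (left) and the APPRIS principal transcript (right). Points are genes coloured by complex, and black bars are the median of all tested genes in each length decile. Members with the shortest principal transcripts have the largest fold changes (median 0.76 up to 700 bases, 0.07 over 1400 bases).

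**Figure D5:**
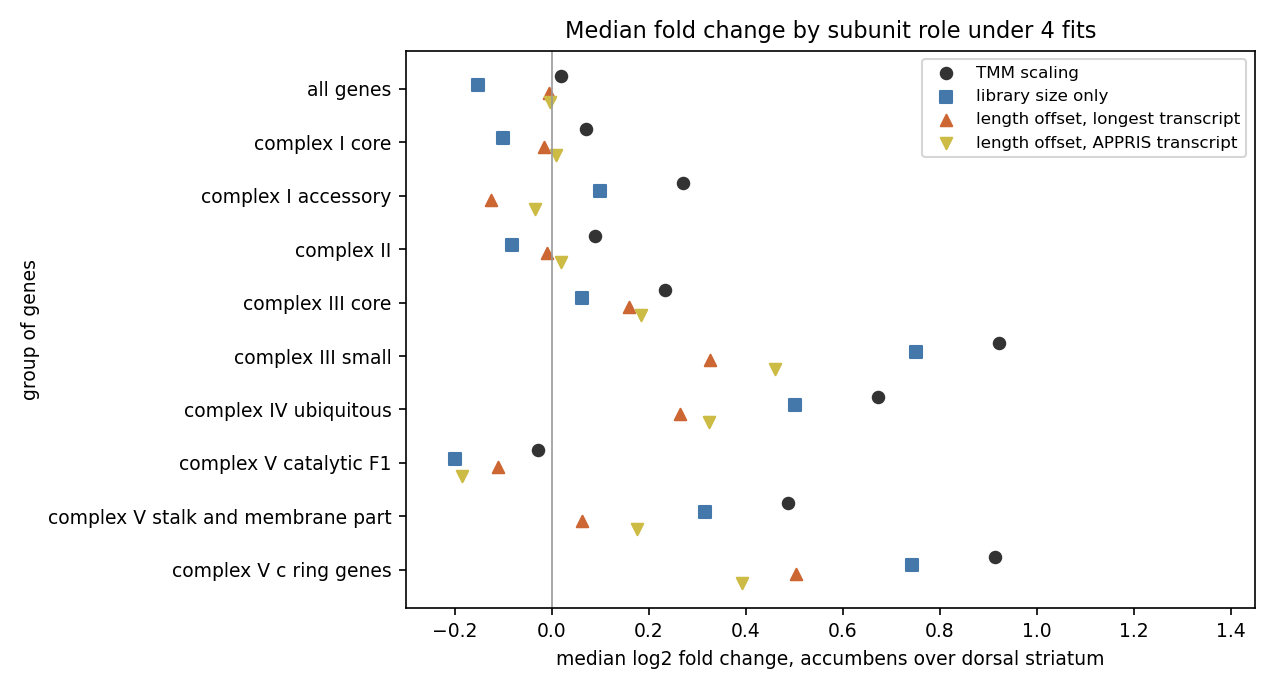
Median log2 fold change (horizontal axis) of all tested genes and of 9 groups of subunits (vertical axis) in 4 fits: TMM scaling, library size only, and offsets for the length of the longest or the principal transcript. The small subunits of complex III move from 0.92 with TMM to 0.33 and 0.46 with the offsets, and the accessory subunits of complex I from 0.27 to −0.13 and −0.03.

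Without a length offset, other lists of energy metabolism had medians nearer to 0 than the members. With the offset for the longest transcript this contrast was gone for several lists. The medians were then 0.08 for the citric acid cycle, 0.06 for glycolysis and 0.08 for carriers, against 0.06 for the members. Assembly factors were at −0.13 and regulators of biogenesis at −0.17. Of 45 tested assembly factors, which build the complexes without staying in them, 0 passed (smallest edgeR adjusted p 0.0698). At an unadjusted p under 0.05, 4 were higher and 4 lower, where 10.9% and 8.27% of all tested genes were. The median of the assembly factors was −0.06. Of 17 genes of the citric acid cycle, Mdh2, mitochondrial malate dehydrogenase, rose from 104 and 137 CPM in dorsal striatum to 243 and 224 CPM in accumbens (log2 fold change 0.95, SE 0.16, edgeR adjusted p = 0.0431), and the list's median was 0.09. Of 16 glycolytic genes, Gapdh was higher in accumbens (0.69, SE 0.13, edgeR adjusted p = 0.0491), with a median of 0.06. Among 24 carriers, porins and import proteins, Slc25a22, a mitochondrial glutamate carrier, was higher (1.07, SE 0.19, edgeR adjusted p = 0.0432), with a median of 0.27. Among 15 regulators of mitochondrial biogenesis, Gabpb2, a partner of the ETS factor Gabpa, was lower in accumbens at 69.6 and 74.7 against 34.8 and 36.9 CPM (−1.01, SE 0.17, edgeR adjusted p = 0.0431), with a median of −0.17.

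Lists of mitochondrial dynamics and cristae (13 genes, median −0.07), uncoupling and alternative electron entry (16 genes, 0.003), antioxidant enzymes (12 genes, 0.30) and mitochondrial ribosomal proteins (75 genes, 0.17) had 0 genes past the threshold in edgeR. At an unadjusted p under 0.05, the first had 4 higher and 1 lower, the second 0 in either direction, the third 3 higher and the last 7 higher and 1 lower. Over all tested genes 10.9% were higher and 8.27% lower at that p. The cytosolic ribosomal proteins, which are also made from short and abundant transcripts, had the highest median of these lists. Of 76 tested, 6 were higher (7.89%, against 0.994% of all tested genes) and 0 lower, with Rps27 (1.71), Rpl41 (1.41) and Rplp1 (1.21) in front. Positive were 69 (90.8%, against 51.4% of all tested genes), and the median was 0.58. The 6 include Rpl10a (1.01), the gene fused to EGFP in this line, and whether its counts hold transgene reads was not tested. With the length offset that median was 0.24. Antioxidant enzymes were then at 0.16, dynamics and cristae at −0.10, uncoupling and electron entry at −0.11 and mitochondrial ribosomal proteins at −0.01.

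Promoter letters were counted over the 71 members with an entry in the RefSeq table, from 250 bases before to 50 after the start, on both strands. The motif of NRF1, a factor known for respiratory chain genes, was searched with its middle letter free and occurred in 17 members (23.9%) and in 5.19% of all 27025 promoters. The ETS motif CCGGAAG, read by GABP, occurred in 16 members (22.5%, against 9.93%), among them Cox8a, Cox6a1 and Cox6b1 of complex IV. The YY1 letters AAGATGGCG occurred in 8 members (11.3%, against 1.64%) and the CRE letters TGACGTCA in 5 (7.04%, against 2.03%). By complex, the NRF1 letters were in 6 of 16 promoters of complex V and in 1 of 13 of complex IV, that of Cox6a1. These are matches of letters and say nothing of binding in this tissue.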

How the data were processed

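The authors deposited raw read counts per gene symbol, 1 file per library, made with STAR 2.0.0e and HTSeq on mm10 per the submitters' processing notes. The sources used here give neither the annotation nor the strand setting, so overlapping and antisense genes cannot be told apart, and reads of subunit genes can be split with their processed pseudogenes. Rows that name no gene stayed out of library sizes: reads in no feature (27.5% to 35.4% of counted reads), ambiguous reads (6.06% to 9.46%) and reads with several alignments (6.98% to 10.2%).

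Counts were tested with edgeR 4.0.16 in R 4.3.3 (TMM scaling, filterByExpr, quasi-likelihood test, region as the only term, Benjamini-Hochberg adjustment over all 14493 tested genes, threshold 0.05). DESeq2 1.42.0, limma-voom (limma 3.58.1), other scalings, filters and offsets for length and GC content were alternatives. Lengths came from GENCODE M21 and covered 85.7% of tested genes, and Atp5sl had none. Promoters came from the RefSeq table of GRCm38.p6.

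The members and lists were chosen with earlier results of these data known. Named were the members past the threshold and the isoform families. In each complex the gene with the highest CPM per kb and those with the largest difference in each direction were named too. From each other list up to 3 genes past the threshold were named, but none from the accumbens and dorsal striatum marker lists. Other genes were named after their values were seen, as were the length classes chosen. The planned comparison of protein sequences was not made. A gene that this rule names is not reported here.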

Additional observations from a re-analysis of the deposited data

How the results depend on the processing

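The count of genes past the threshold, 186 with edgeR, was 1203 without a low-count filter, 473 with at least 10 counts in every library, 884 with DESeq2, 431 with limma-voom, 843 with the replicate block, 119 with a GC offset, and 109 to 4464 without 1 library. The split of 144 higher and 42 lower became 72 and 172 with library size only, 128 and 62 with upper quartile scaling, 768 and 435 without a filter, 305 and 168 with at least 10 counts, 575 and 309 with DESeq2, 551 and 292 with the block, 1541 and 1248 without accumbens replicate 1 and 2386 and 2078 without accumbens replicate 2. Same-numbered libraries deviated together only weakly (r = 0.0326 over 14493 genes), so the numbers were not taken to pair the libraries.

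Of the respiratory chain genes, 3 were higher with TMM (0.994% of all genes tested in that fit), 1 with library size only (0.497%), 10 without a filter (3.63%), 9 with DESeq2 (3.97%), 9 with the replicate block (3.80%), 0 with the length offset (0.807%) and 1 with the APPRIS length offset (0.759%), which was added after seeing the data. Without 1 library 1 to 26 were higher (22 and 26 without accumbens replicates 1 and 2, where 10.04% and 15.5% of all genes were, and 1 without either dorsal striatum library, where 0.528% and 0.858% were) and 0 to 3 lower (3 without accumbens replicate 2). DESeq2 and the block both kept Cox8a, Cox7a2 and Ndufa4 and added Atp5d, Atp5g1, Cox6a1, Cox6b1, Cox7c and Ndufc1.

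With library size only, the median log2 fold change was 0.18 for all members, 0.10 for complex I, −0.081 for complex II and 0.44 for complex IV. With the length offset and the APPRIS offset it was 0.060 and 0.10 for all members, −0.059 and −0.0065 for complex I, 0.26 and 0.29 for complex III, 0.24 and 0.29 for complex IV, and 0.063 and 0.18 for complex V. Without 1 library it ran from 0.20 to 0.44 for all members, 0.10 to 0.41 for complex I, −0.04 to 0.21 for complex II, 0.36 to 0.81 for complex III, 0.42 to 0.80 for complex IV and 0.24 to 0.58 for complex V. The log2 ratio of sums with library size only was −0.052 for complex I, −0.14 for complex II, 0.18 for complex III, 0.45 for complex IV and −0.36 for complex V. It was 0.46 for complex III without its most abundant gene, and 0.078 for complex V without Atp5b or without the 50 most abundant genes. Without 1 library the ratio ran from 0.029 to 0.22 for complex I, −0.12 to 0.20 for complex II, 0.26 to 0.44 for complex III, 0.49 to 0.78 for complex IV and −0.30 to −0.054 for complex V.

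The median CPM per kb by total exon length was 16.2 for complex I (22.9 by longest transcript), 29.98 for complex II (36.7), 18.5 for complex III (25.9), 38.1 for complex IV (57.0) and 17.1 for complex V (40.5). By APPRIS length it was 26.8 for complex I, 37.7 for complex III and 47.9 for complex V.

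Of the 79 members, 17 changed sign with library size only, 23 with the length offset and 19 with the APPRIS offset. Of the genes chosen by the naming rule, these changed sign. With library size only, Atp5g3 was at −0.075, Cox4i1 at −0.071 and Cycs at −0.028. With the length offset, Atp5g3 was at −0.35, Cox4i1 at −0.31, Uqcrh at −0.32 and Sdha at 0.0080. With the GC offset, Cox4i1 was at −0.12 and Sdha at 0.029. Without 1 library, Atp5g3 ran from −0.029 (without dorsal striatum replicate 1) to 0.21, Cox4i1 from −0.079 (without dorsal striatum replicate 1) to 0.28, Cox7a2l from −0.41 to 0.016 (without dorsal striatum replicate 2), Ndufb9 from −0.13 to 0.0033 (without accumbens replicate 2) and Sdha from −0.20 to 0.16 (without dorsal striatum replicate 2). Cox4i1 was also at −0.045 and Sdha at 0.034 without accumbens replicate 2, and Ndufb9 at 0.0017 without dorsal striatum replicate 2. For all of these the cause was not tested. Depth limits genes such as Atp5l, with 9 to 22 counts per library and an SE of 0.79.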
